A study of Homo sapiens with 3 samples.

Results

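The respiratory chain of the inner mitochondrial membrane was examined here through its nuclear-encoded subunits, in RNA sequencing (RNA-seq) of PANC-1 cells. PANC-1 is an established human pancreatic cancer cell line of epithelial origin. The members were taken from the deposited count table by gene name: symbols that began with NDUFA, NDUFB, NDUFC, NDUFS or NDUFV and a number, the SDHA to SDHD genes, names that began with UQCR, CYC1, names that began with COX4 to COX8, and names that began with ATP5. Antisense names and names of numbered pseudogenes were left out. The rule found 91 of the 51136 rows. Of these, 85 were subunits or their isoforms and could be placed in a complex: 36 in complex I, 4 in complex II, 10 in complex III, 19 in complex IV and 16 in complex V. The other 6 rows were the readthrough rows ATP5J2-PTCD1 and NDUFC2-KCTD14, the pseudogene names ATP5J2LP and COX8BP, and ATP5S and ATP5SL, which are not structural subunits of the ATP synthase.

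The study held 3 libraries, 1 for each condition: untreated cells (control), cells given 200 μM ginsenoside Rg3 for 24 h (Rg3), and cells given 50 μM tamoxifen for 24 h (TAM). Rg3 is a saponin of ginseng with antiangiogenic activity, and tamoxifen is an antiestrogen that also inhibits protein kinase C. Each group is the same line in culture, and nothing in the sources used here says whether a library came from 1 culture or several, or whether control cells received the solvent. The doses of the 2 agents differed, so their values stand side by side without a comparison between the agents. With 1 library per condition, no test of a treatment could be made, and every interval below covers the counting of reads and no other error.

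The chain passes electrons from NADH (complex I) and succinate (complex II) through coenzyme Q to complex III, through cytochrome c to complex IV and on to oxygen. Complexes I, III and IV pump protons, and the ATP synthase (complex V) uses the gradient to make ATP. Complexes I, III, IV and V are built from nuclear-encoded subunits together with subunits made inside the organelle from the mitochondrial genome, so transcripts of both genomes are needed. In pancreatic cancer cells respiration runs beside glycolysis.

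The libraries held 11300766 (control), 12861693 (Rg3) and 11321442 (TAM) counted reads. Levels are CPM (counts scaled to the size of the library) after TMM scaling, a scaling that sets the bulk of genes equal between libraries, with factors of 1.02, 1.12 and 0.879. The comparison covered genes that reached 10 counts in control or in the treated library. A gene is said to be past the fold when its ratio to control was over 1.5 or under 0.67, the fold limits of the study's methods. Those methods also set a limit on the false discovery rate. It is not part of the calls here, since no test of a treatment could be made. A single value in brackets after a gene or its levels is its log2 fold change against control for the agent under discussion. Symbols are those of the count table, which uses older names in complex V: ATP5D is now ATP5F1D, ATP5G1 to ATP5G3 are ATP5MC1 to ATP5MC3, ATP5I is ATP5ME and ATP5J2 is ATP5MF. Among the epithelial markers, KRT8 had 15329, 7817 and 14411 counts in control, Rg3 and TAM, while CDH1 had 76, 39 and 5 and EPCAM 26, 26 and 8. Of the 6 epithelial markers, 5 were past the fold lower with Rg3, and 1 was higher and 3 were lower with TAM. Their part in the results below was not tested. The 7 acinar and islet markers were at 0 in every library. Of the 6 stromal, endothelial and leukocyte markers, CD68 had 615, 426 and 1100 counts and the other 5 had at most 3, among them PTPRC, PECAM1 and DCN with at most 1. A count is relative to its library, so fewer cells that hold a transcript and less of it per cell cannot be told apart.

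Of the 91 members, 83 passed the minimum of 10 counts. The 6 rows COX4I2, COX6A2, COX7A1, COX8C, ATP5J2LP and COX8BP were at 0 in every library, which allows up to 3 counts in each. COX7B2 had 0, 5 and 0 counts and NDUFA4L2 had 3, 8 and 8.

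Because fold changes in both treated libraries tracked the base composition of the transcripts, coding sequence from both ends of that range is shown first. The lines give the first 90 coding bases of the 3 subunits with the highest and 3 near the lowest coding GC content among those with at least 50 counts in 1 library, from the GENCODE 29 annotation on GRCh38, 5′ to 3′, with every G and C in capitals. The highest are ATP5D (the delta subunit of the F1 head, 68.3% GC over its coding sequence), NDUFS7 (66.2%) and NDUFB7 (65.9%). After UQCRB (41.4%, not printed), the lowest are NDUFA5 (42.5%), NDUFB3 (42.9%) and ATP5J (coupling factor 6 of the stalk, 42.9%).
ATP5D: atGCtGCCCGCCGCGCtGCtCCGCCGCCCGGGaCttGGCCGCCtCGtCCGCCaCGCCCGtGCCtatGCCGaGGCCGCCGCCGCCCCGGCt
NDUFS7: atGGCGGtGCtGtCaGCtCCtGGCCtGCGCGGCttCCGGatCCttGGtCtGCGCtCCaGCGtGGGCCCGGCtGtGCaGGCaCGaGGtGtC
NDUFB7: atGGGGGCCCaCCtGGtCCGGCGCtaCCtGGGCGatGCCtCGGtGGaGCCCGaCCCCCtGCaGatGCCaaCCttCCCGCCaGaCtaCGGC
NDUFA5: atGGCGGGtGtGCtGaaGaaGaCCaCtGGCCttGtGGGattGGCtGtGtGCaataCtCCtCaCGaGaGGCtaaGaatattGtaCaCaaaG
NDUFB3: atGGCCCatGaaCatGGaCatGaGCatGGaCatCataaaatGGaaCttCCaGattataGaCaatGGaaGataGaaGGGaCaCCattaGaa
ATP5J: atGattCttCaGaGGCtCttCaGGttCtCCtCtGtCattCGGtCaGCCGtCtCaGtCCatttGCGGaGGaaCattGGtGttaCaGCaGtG
These coding starts lie at chr19:1241851-1241940 (plus strand), chr19:1383927-1388561 (plus strand), chr19:14571911-14572000 (minus strand), chr7:123550563-123557795 (minus strand), chr2:201078883-201078972 (plus strand) and chr21:25729705-25729794 (minus strand), in exons. The spans of NDUFS7 and NDUFA5 include intron sequence that is not in the lines above. Capitals make up 81.1%, 70.0% and 71.1% of the ATP5D, NDUFS7 and NDUFB7 lines. In the NDUFA5, NDUFB3 and ATP5J lines they make up 50.0%, 40.0% and 50.0%. The genes were chosen by their whole coding sequence, not by the printed stretch. At the last base of each codon GC was 91.2% in NDUFB7 and 35.7% in NDUFB3 over the coding sequence.

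The 3 genes of subunit c show the same difference in composition within 1 protein. Subunit c forms the rotating ring of the ATP synthase, and ATP5G1, ATP5G2 and ATP5G3 encode precursors whose last 77 residues translate to the same protein. Over those 231 coding bases, ATP5G1 and ATP5G2 differed at 27 positions, 24 of them at wobble positions, the last base of a codon. ATP5G1 and ATP5G3 differed at 46, with 39 at wobble positions, and ATP5G2 and ATP5G3 at 46, with 40 there. The GC content of the wobble positions was 63.6% in ATP5G1, 61.0% in ATP5G2 and 39.0% in ATP5G3. The last 90 coding bases before the stop codon are printed with G and C in capitals.
ATP5G1: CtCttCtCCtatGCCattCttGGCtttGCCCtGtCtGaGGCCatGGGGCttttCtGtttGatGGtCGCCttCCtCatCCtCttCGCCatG
ATP5G2: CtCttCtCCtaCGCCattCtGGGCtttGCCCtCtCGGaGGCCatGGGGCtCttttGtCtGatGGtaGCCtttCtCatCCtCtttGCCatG
ATP5G3: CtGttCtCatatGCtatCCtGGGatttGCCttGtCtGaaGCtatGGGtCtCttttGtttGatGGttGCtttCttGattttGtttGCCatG
They lie in exons at chr17:48895677-48895766 (plus strand), chr12:53665317-53665406 (minus strand) and chr2:175178291-175178380 (minus strand) on GRCh38. Of the printed bases, 53.3%, 54.4% and 41.1% are G or C.

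The nuclear-encoded members together were a larger part of the counted reads in both treated libraries. The 13 subunits of the mitochondrial genome, given further down, were a smaller part in both. The 91 rows took 1.54% (1.53 to 1.54) of the reads in control, 1.63% (1.63 to 1.64) in Rg3 and 1.76% (1.76 to 1.77) in TAM, with exact 95% Clopper-Pearson intervals. A share divides by the library total, so these values are on the scale of library totals and the TMM factors are not applied. The direction with Rg3 depended on that choice. The median log2 fold change of the members with Rg3 was 0.15 with library totals and 0.0065 with TMM scaling. With TAM it was 0.18 and 0.39. Complex I took 0.422%, 0.408% and 0.508%, and its share in Rg3 lay below that in control. Complex IV took 0.312%, 0.358% and 0.322%, with the highest share in Rg3. Complex V, the largest part, took 0.495%, 0.547% and 0.599%. Complex III took 0.234%, 0.247% and 0.258%. Complex II took 0.0591% (0.0576 to 0.0605), 0.0602% (0.0589 to 0.0616) and 0.0618% (0.0603 to 0.0633), where the interval of control overlapped those of both treated libraries.

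**Figure D1:**
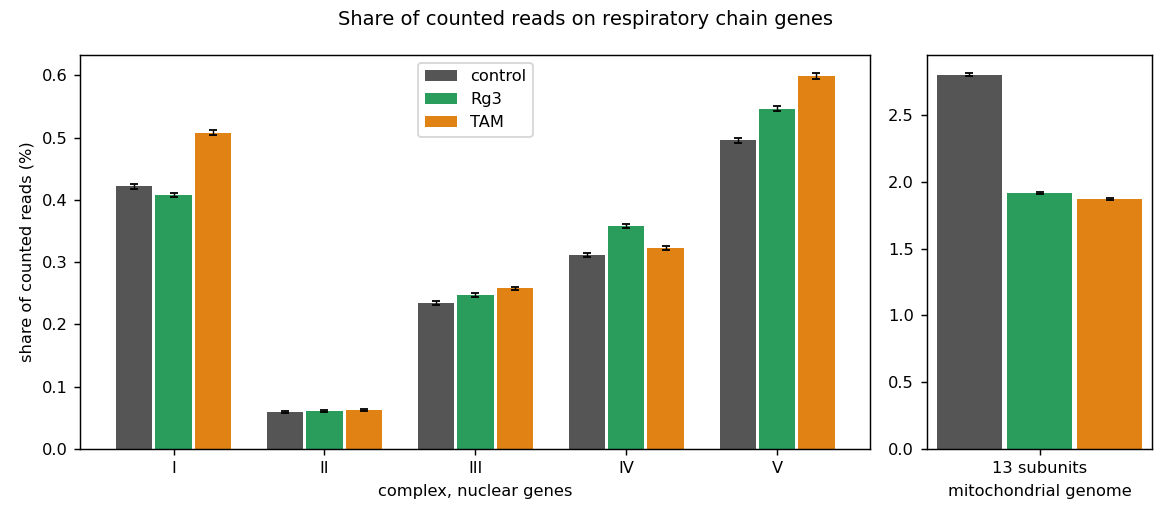
Share of counted reads (%, linear axis from 0) on the nuclear genes of each complex (left) and on the 13 subunits of the mitochondrial genome (right, with its own axis), in control (grey), Rg3 (green) and TAM (orange). Error bars are exact 95% intervals of counting error. Complex V stands at 0.495%, 0.547% and 0.599%, while the mitochondrial genome stands at 2.80% in control and at 1.92% and 1.87% in the treated libraries.

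Levels between genes were compared per kb of transcript, as CPM divided by the median length of a gene's protein-coding transcripts. In control the highest was ATP5B, the catalytic beta subunit of the F1 head, at 1313 CPM per kb. COX6B1, the complex IV subunit that faces the intermembrane space, followed at 983, then COX6A1 at 699 and NDUFB9 of the membrane arm of complex I at 614. Among the complexes with 10 or more subunits compared, the median was 230.0 for complex IV, 211 for complex V, 142 for complex III and 101 for complex I. The highest in complex III was UQCRQ at 474 and in complex II SDHC, a membrane anchor, at 204. Among subunits above the minimum, the lowest per kb were COX6B2 at 1.94, ATP5L2 at 3.05 and NDUFA5 at 4.14. The lowest within complex III was UQCRFS1, the Rieske iron-sulfur protein, at 49.2, and within complex II SDHD at 66.9. Subunits of 1 complex thus differed over 10-fold in level per kb in complexes I, IV and V. A median length stands for every isoform of a gene, so the order holds for these lengths.

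**Figure D2:**
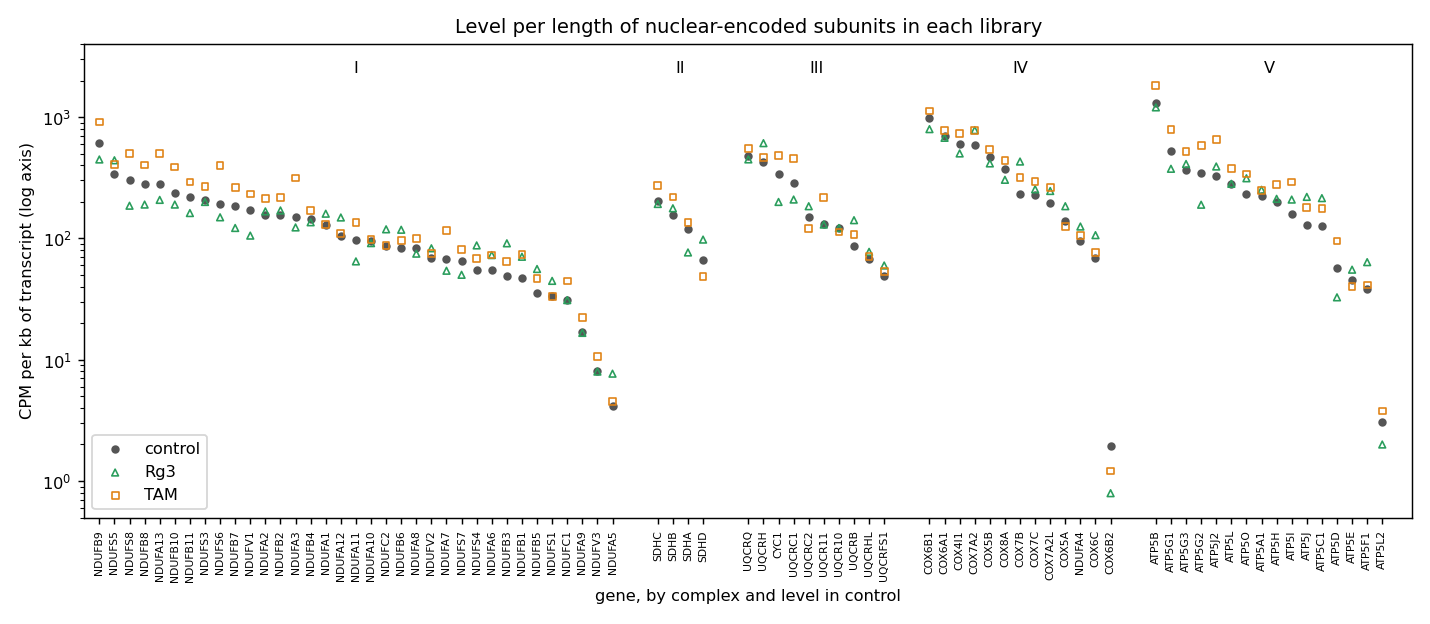
Level per length (CPM per kb, log axis) of the subunits named in the plot, by complex and by level in control, in control (grey circles), Rg3 (green triangles) and TAM (orange squares). ATP5B stands at 1313 in control and COX6B2 at 1.94.

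For the paralogs of complex IV and others, PANC-1 cells used the forms found in most tissues. COX4I1 was at 474 CPM in control, 398 in Rg3 and 583 in TAM, and its lung paralog COX4I2 had no count. COX6A1 (399.6, 386 and 441 CPM in the same order), COX7A2 (281, 375 and 371 CPM) and COX8A (189.5, 154 and 222 CPM) stood against no count for the heart and muscle forms COX6A2 and COX7A1 and for COX8C, a testis form. COX7A2L, a relative of COX7A2 that takes part in supercomplexes, was at 219, 273 and 293 CPM. COX6B1 was at 558, 451 and 635 CPM, while its testis paralog COX6B2 had 37, 19 and 20 counts. COX6B2 was past the fold, lower, with both agents: its log2 fold change was -1.29 (95% interval -2.17 to -0.45) with Rg3 and -0.68 (95% interval -1.54 to 0.14) with TAM, where the second interval held 0. About 28.1% of the 50-base stretches of COX6B2 also occur in transcripts of another gene name. COX7B (139, 259.9 and 192 CPM) had a testis paralog, COX7B2, at 5 counts in Rg3 and 0 in control and TAM. NDUFA4 (203, 267 and 225 CPM), a complex IV subunit despite its name, far outnumbered NDUFA4L2, its hypoxia-induced paralog. UQCRH, the hinge protein, was at 256, 368 and 279 CPM and UQCRHL, an intronless copy, at 146, 169 and 155 CPM, and reads of such copies can be split or exchanged by the counting. ATP5L2, a copy of ATP5L, had 28, 23 and 30 counts.

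With Rg3 the members split by subunit, with about as many higher as lower. Of 83 compared, 10 were past the fold higher, where 25.0% of all 16487 genes compared were, and 11 were past it lower, where 19.5% of all genes were. The median log2 fold change of the members was 0.0065 (SD across members 0.48), against 0.043 over all genes, with 42 members above 0 and 41 below. Of these, 38 had a counting interval above 0 and 30 below it. Both shares past the fold were under those of all genes. Scaling by library totals moved the median of all genes by 0.14 and the split to 16 higher and 5 lower. The shares of all genes past the fold hold for TMM scaling and are not given for library totals.

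The higher members with Rg3 were accessory subunits of complexes I, III and IV and parts of complex V. COX7B, a small complex IV subunit, was at 139 CPM in control, 259.9 in Rg3 and 192 in TAM, and its log2 fold change with Rg3 was 0.90 (95% interval 0.82 to 0.99). NDUFB3 of the membrane arm of complex I was at 26.8, 49.8 and 35.3 CPM (0.89). NDUFA5, an accessory subunit of the quinone module, was at 7.05, 13.1 and 7.74 CPM, with a log2 fold change of 0.89 (95% interval 0.50 to 1.28) from 81, 188 and 77 counts. In each of these the Rg3 library stood above the others, and the TAM library lay nearer to control. Complex V gave the next 3. ATP5C1, the gamma shaft subunit, was at 141, 240.4 and 196 CPM, with a log2 fold change of 0.77 (95% interval 0.69 to 0.86). The stalk subunits ATP5J (79.3, 135 and 111 CPM) and ATP5F1, subunit b (73.8, 122 and 79.1 CPM), had log2 fold changes of 0.77 and 0.73. All 4 peripheral stalk genes were above 0, from 0.081 to 0.77. The remaining higher members were UQCRB of complex III (0.71), NDUFS4 of the NADH module (0.68), NDUFB5 (0.65) and COX6C (0.64).

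The lower members with Rg3 held several core and catalytic subunits, while others of that kind, given below, lay above 0. With the trend on composition described further down taken out, NDUFV1 (-0.13), NDUFS8 (-0.096), CYC1 (-0.18) and SDHA (-0.33) were inside the fold. ATP5G2, the subunit c gene, was at 283 CPM in control, 154 in Rg3 and 470.2 in TAM, with a log2 fold change of -0.88 (95% interval -0.96 to -0.80). ATP5D was at 40.1, 23.0 and 66.8 CPM, with a log2 fold change of -0.80 (95% interval -1.01 to -0.60). CYC1, cytochrome c1 of complex III, was at 424, 247 and 596 CPM, with a log2 fold change of -0.78 (95% interval -0.84 to -0.71). These 3 were lowest in Rg3 and highest in TAM. In complex I, NDUFV1, which binds NADH and the flavin, was at 261, 159 and 350.2 CPM, with a log2 fold change of -0.71 (95% interval -0.79 to -0.63). NDUFS8, an iron-sulfur subunit, was at 172, 106 and 287 CPM, with a log2 fold change of -0.69 (95% interval -0.79 to -0.60). Both were lowest in Rg3 and highest in TAM. The log2 fold changes of other core subunits of complex I were -0.39 (NDUFS7), -0.048 (NDUFS3), 0.25 (NDUFV2) and 0.42 (NDUFS1). SDHA, the flavoprotein of complex II, was at 252, 161 and 284 CPM (-0.64), while the other subunits of the same enzyme had log2 fold changes of 0.20 (SDHB), -0.084 (SDHC) and 0.55 (SDHD). UQCRFS1, the other catalytic subunit of complex III listed, had a log2 fold change of 0.28. NDUFB7 (-0.59) and NDUFA11 (-0.58) of the membrane arm lay just past the fold and NDUFB8 (-0.57) just inside it. ATP5L2, with 28, 23 and 30 counts, had a log2 fold change of -0.61 (95% interval -1.47 to 0.24), an interval that held 0.

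**Figure D3:**
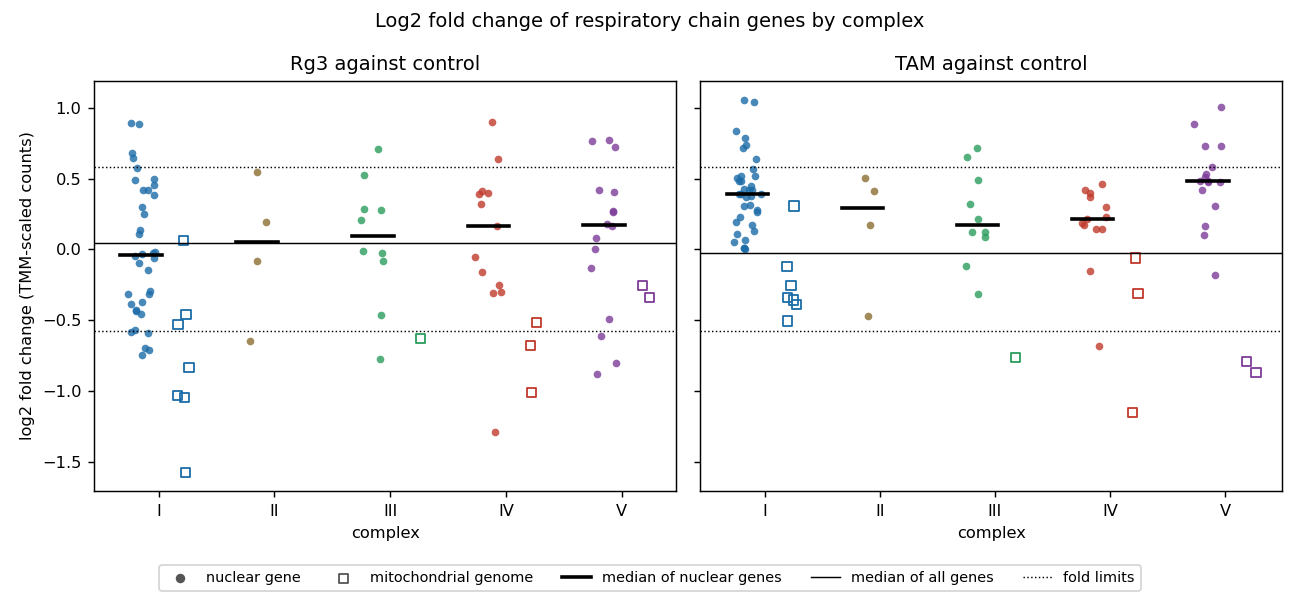
Log2 fold change against control of TMM-scaled counts, by complex, in Rg3 (left) and TAM (right). Filled points are nuclear genes with their median as a thick bar, open squares are subunits of the mitochondrial genome, the thin line is the median of all genes, and dotted lines are the fold limits of 1.5 and 0.67. With TAM all 36 nuclear genes of complex I lie at or above 0, while 12 of the 13 squares lie below it.

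With TAM the members lay higher as a group. Of 83 compared, 15 were past the fold higher, where 17.4% of all 16079 genes compared were, and 1, COX6B2, was past it lower, where 23.8% of all genes were. The share higher was near that of all genes, and the share lower was under it. The median log2 fold change was 0.39 (SD 0.31), against -0.024 over all genes, and 76 members lay above 0. The counting interval was above 0 for 64 and below 0 for 4. Thus most members moved by less than the fold limit and in the same direction. Scaling by library totals moved the median of all genes by -0.21 and that of the members to 0.18, with 5 higher and 2 lower. Here too the shares of all genes past the fold are those of TMM scaling only.

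By complex the medians with TAM were 0.48 in complex V, 0.39 in complex I, 0.29 in complex II, 0.21 in complex IV and 0.17 in complex III. With library totals those of complexes II, III and IV were 0.084, -0.037 and 0.0042, and 2 of the 4 genes of complex II were below 0. No direction is given for these complexes. All 36 genes of complex I were above 0 with TMM scaling, and the counting interval held 0 for 7 of them. Past the fold higher were 7 with TMM scaling, beside the 17.4% of all genes on that scale. With library totals 3 were, and the share of all genes is not given for that scale. With library totals 9 of the 36 were below 0, among them NDUFA1 (-0.20), NDUFA10 (-0.16), NDUFC2 (-0.20) and NDUFS1 (-0.21). The largest was NDUFA3 of the membrane arm at 61.5 CPM in control, 50.1 in Rg3 and 128 in TAM, with a log2 fold change of 1.06 (95% interval 0.93 to 1.19). NDUFS6, a zinc-binding subunit of the NADH module, was at 158, 122 and 325 CPM, with a log2 fold change of 1.04 (95% interval 0.96 to 1.13). NDUFA13, also known as GRIM-19, was at 231, 171 and 412 CPM, with a log2 fold change of 0.83 (95% interval 0.76 to 0.91). In these 3 the TAM library was the highest and the Rg3 library the lowest. NDUFA7, which shares 32.5% of its stretches with another gene name, had a log2 fold change of 0.79 and NDUFS8 0.74, and NDUFS8 was the 1 core subunit of complex I past the fold. The least changed were NDUFS1 (0.00025), NDUFC2 (0.0099), NDUFA1 (0.011) and NDUFA10 (0.050).

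In complex V, 5 of 16 genes were past the fold higher with TAM, where 17.4% of all genes were, and 0 lower. With library totals 2 were higher, a scale for which the share of all genes is not given. With the trend on composition described further down taken out, 1 was, where 11.4% of all genes were. ATP5J2, the f subunit at the membrane, was at 105 CPM in control, 126 in Rg3 and 211 in TAM, with a log2 fold change of 1.00 (95% interval 0.90 to 1.11). ATP5I, the e subunit next to it, was at 57.6, 76.2 and 106 CPM, with a log2 fold change of 0.89 (95% interval 0.74 to 1.03), and 45.5% of its stretches recur under other gene names, mainly MYL5. ATP5D had a log2 fold change of 0.73, and the subunit c genes ATP5G1, ATP5G2 and ATP5G3 had log2 fold changes of 0.59, 0.73 and 0.51. The catalytic subunits ATP5A1 (0.16) and ATP5B (0.48) and the shaft subunit ATP5C1 (0.48) were inside the fold. ATP5E, the epsilon subunit, was the 1 gene of complex V below 0, at 85.9, 104 and 75.8 CPM (-0.18). In complex III, UQCR11, a small subunit, was past the fold at 99.7, 97.8 and 164 CPM (0.72), and CYC1 (0.49) and UQCRFS1 (0.12) were inside it. Members past the fold higher that the naming rule did not reach, listed here after their values were seen, were UQCRC1, NDUFB10, NDUFB1 and ATP5SL, with log2 fold changes of 0.66, 0.71, 0.64 and 0.71.

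Among members with at least 50 counts, those furthest below the others with TAM came from different complexes. COX6B2, with 37 counts in control and 20 in TAM, was lower still (-0.68), and ATP5E (-0.18) is given above. SDHD, a membrane anchor of complex II, was at 57.6 CPM in control, 84.1 in Rg3 and 41.5 in TAM, with a log2 fold change of -0.47 (95% interval -0.65 to -0.29), while SDHA, SDHB and SDHC had log2 fold changes of 0.17, 0.50 and 0.41. Its level was thus highest in Rg3 and lowest in TAM. Pseudogene rows of SDHD held 39.9% as many counts as SDHD itself in control. UQCRC2, a core protein of complex III, was at 214, 260.4 and 171 CPM (-0.32), and UQCRC1, its partner, at 572, 415 and 901 CPM. COX5A of complex IV was at 80.1, 106 and 72.1 CPM (-0.15) and UQCR10 of complex III at 91.8, 91.3 and 84.8 CPM (-0.11). The readthrough row NDUFC2-KCTD14 had a log2 fold change of -0.060. It shared 80.0% of its stretches with other gene names, mainly NDUFC2, and ATP5J2-PTCD1 shared 85.9%, mainly with PTCD1, so these rows were kept out of the complexes.

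For 3 members the folds against the shared control pointed in opposite directions in the 2 treated libraries: ATP5D, ATP5G2 and NDUFS8 were past the fold lower with Rg3 and higher with TAM. ATP5D had 461, 331 and 665 counts in control, Rg3 and TAM, ATP5G2 had 3249, 2212 and 4680, and NDUFS8 had 1974, 1530 and 2852. The 2 comparisons share the control library, so these values stand side by side only. No share of all genes with such opposite folds is given beside this count. With the trend on composition described further down taken out, all 3 were inside the fold with both agents. Their values with Rg3 and TAM were then -0.058 and 0.050 (ATP5D), -0.45 and 0.19 (ATP5G2), and -0.096 and 0.061 (NDUFS8). The subunit c genes took both patterns. ATP5G1 was at 284 CPM in control, 202 in Rg3 and 426 in TAM and ATP5G3, the gene with AT-rich wobble positions, at 308, 345 and 438 CPM. Their log2 fold changes with Rg3 were -0.49 (95% interval -0.57 to -0.42) for ATP5G1 and 0.17 (95% interval 0.10 to 0.23) for ATP5G3, beside -0.88 for ATP5G2. ATP5G1 and ATP5G2 were below control and ATP5G3 above it with Rg3, while all 3 were above it with TAM. Over whole transcripts their GC content was 54.0%, 56.7% and 47.8% in the order ATP5G1 to ATP5G3. With the trend taken out, the values with Rg3 were -0.21, -0.45 and -0.026 in that order, all inside the fold.

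The fold changes followed transcript GC content. With Rg3 Spearman's rho between log2 fold change and GC content was -0.82 over the 81 members with at least 50 counts and a GC value, and -0.82 over 11981 genes. Genes of 1 library are not independent replicates and share its preparation and depth, so rho is given as a description. The 42 members at or below their median GC content of 50.6% had a median log2 fold change of 0.39, with 10 higher and 1 lower, and the 41 above it had -0.31, with 0 higher and 10 lower. All genes moved likewise, with medians of 0.72 between 40% and 42% GC and -0.59 between 60% and 62%. No share of all genes of like GC content past the fold is given beside these counts or those with TAM below. With TAM rho was 0.45 over 81 members and 0.52 over 11398 genes, and with transcript length it was -0.22 and -0.44. The medians with TAM were 0.31 in the GC-poor members, with 1 higher and 0 lower, and 0.48 in the GC-rich members, with 14 higher and 1 lower. In the TAM library the GC-poor members thus lay above all genes of like GC content, whose median was -0.25 between 44% and 46% GC. The subunits have short transcripts, with a median of 761 bases against 2421 for all genes, at a similar GC content (medians of 50.0% and 49.5%).

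**Figure D4:**
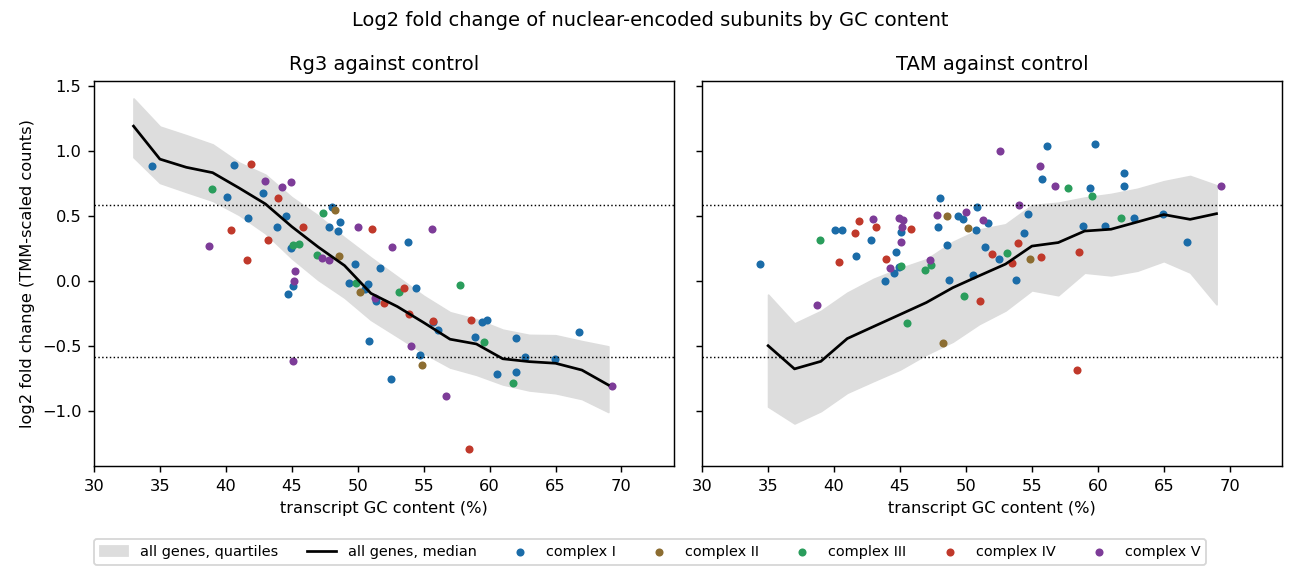
Log2 fold change against control (TMM-scaled counts) by transcript GC content (%) for nuclear-encoded subunits, coloured by complex, in Rg3 (left) and TAM (right). The black line and grey band are the median and quartiles of all genes with at least 50 counts in steps of 2 points of GC, and dotted lines are the fold limits. Subunits follow the falling line with Rg3 (rho of -0.82) and lie mostly above the line with TAM.

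Removal of a smooth trend of fold change on GC content and length, fitted over all genes, changed these counts, and the result depended on which transcript stood for a gene. The values that follow are for median length and GC content. With the longest transcript 4 members were higher and 11 lower with Rg3, and with TAM 17 were higher and 1 was lower. No share of all genes is given for that version, and the shares below belong to the median version. With Rg3 1 member was then higher, where 8.11% of all 14796 genes with both values were, and 3 were lower, where 10.2% of all genes were. The higher one was ATP5I (0.80), and the lower ones included ATP5L2 (-1.03) and COX6B2 (-0.78). The subunits ATP5D (-0.058), CYC1 (-0.18) and NDUFV1 (-0.13) were then inside the fold. With TAM 3 were higher, where 11.4% of all 14527 genes were, and 3 were lower, where 16.9% of all genes were. The higher ones were NDUFA9 (0.92), ATP5J2 (0.67) and NDUFB5 (0.59), and the lower ones COX6B2 (-1.16), SDHD (-0.64) and NDUFC2-KCTD14 (-0.64). The curve was fitted over all genes and did not flatten the members. Over all genes rho with GC content was -0.0098 with Rg3 and -0.017 with TAM after the removal, but over the 81 members it was 0.25 with Rg3 and -0.53 with TAM, and with length -0.39 and 0.092. The medians of the GC-poor and GC-rich members were then -0.053 and 0.069 with Rg3, and 0.29 and 0.0028 with TAM, so values and counts of members after the removal still depend on composition. The median of the members with TAM was then 0.18 against -0.018 for all genes. By complex it was 0.30 in complex V, where all 16 genes were above 0 (lowest 0.050), and 0.14 in complex I. In complexes II, III and IV it was 0.021, 0.069 and -0.14. Whether composition and length act in the cells or in library preparation was not tested. The names NDUFA9 and NDUFB5 were taken after these values were seen.

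The subunits encoded in the mitochondrial genome stood on the other side. Their 13 genes took 2.80% (2.79 to 2.81) of the reads in control, 1.92% (1.91 to 1.92) in Rg3 and 1.87% (1.87 to 1.88) in TAM. The ratio of their counts to those of the 85 nuclear-encoded subunits placed in a complex was 1.84 in control, 1.18 in Rg3 and 1.07 in TAM. The median log2 fold change was -0.63 with Rg3, with 7 of 13 past the fold lower, and -0.36 with TAM, with 4 of 13 lower, beside 19.5% and 23.8% of all genes lower. With library totals the median was -0.49 and -0.57. With the trend taken out it was -0.995 with Rg3, with all 13 lower, where 10.2% of all genes were, and -0.29 with TAM, with 4 lower, where 16.9% were. With Rg3 the lowest log2 fold changes were those of ND6 (-1.57, from 247 counts in control to 104), ND2 (-1.05), ND1 (-1.03) and COX1 (-1.01), the catalytic subunit of complex IV. With TAM they were those of COX3 (-1.15), ATP8 (-0.87) and ATP6 (-0.79), which lie next to each other on the mitochondrial genome. The 2 mitochondrial rRNA rows went the other way: RNR1 had log2 fold changes of 0.49 and 1.10 and RNR2 0.80 and 0.85 with Rg3 and TAM. The share of RNR1 and RNR2 was 0.278% in control, 0.516% in Rg3 and 0.445% in TAM, and its part in the other differences was not tested.

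Other genes of the pathway were counted by lists, to be read beside the 25.0% of all genes higher and 19.5% lower with Rg3 and the 17.4% and 23.8% with TAM. After the trend was taken out those shares were 8.11% and 10.2%, and 11.4% and 16.9%. Of 46 assembly factors compared, which build the complexes, 7 were past the fold higher and 5 lower with Rg3. With TAM 9 were higher and 2 lower. After the removal 1 was higher and 4 lower with Rg3, and with TAM 4 and 1. TMEM126B, an assembly factor of complex I, had 255 counts in control and 586 in Rg3 (0.87, interval 0.66 to 1.09), and NDUFAF3, another, had 1735 counts in control and 1240 in Rg3 (-0.81, interval -0.92 to -0.71) and 2557 in TAM (0.77, interval 0.68 to 0.85). LYRM7, which helps to insert the Rieske protein, had 100 counts in control and 33 in TAM (-1.39, interval -2.01 to -0.81). With the trend out, TMEM126B was at -0.0062 with Rg3, NDUFAF3 at -0.24 and 0.12 with Rg3 and TAM, all inside the fold, and LYRM7 at -1.20 with TAM. Of 11 genes of coenzyme Q synthesis and cytochrome c, 3 were higher and 0 lower with Rg3. With TAM these counts were 2 and 0. After the removal they were 0 and 0 with Rg3, against 3 and 0 with TAM. CYCS, cytochrome c itself, had 1941 counts in control and 4506 in Rg3 (0.89, interval 0.81 to 0.97), and COQ4 had 151 counts in control and 313 in TAM (1.26, interval 0.97 to 1.55), and without the trend their values were 0.27 and 0.72. Of 13 other citric acid cycle genes, 3 were higher and 1 lower with Rg3. With TAM these counts were 1 and 1. After the removal 0 of the 13 were past the fold with either agent. DLD, which serves several dehydrogenases, was past the fold with both agents, at 1.02 (interval 0.84 to 1.21) on the log2 scale with Rg3 and -0.74 (interval -1.02 to -0.48) with TAM, and at 0.25 and -0.43 without the trend. Each of these counts was given without a test.

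Transcription factors and coactivators of nuclear respiratory genes were compared as well. With Rg3 5 of 11 were past the fold higher and 1 lower, where 25.0% and 19.5% of all genes were. With TAM 1 of 10 was higher and 4 lower, where 17.4% and 23.8% were. GABPA, which with GABPB1 forms nuclear respiratory factor 2, had 130 counts in control and 349 in Rg3 (1.10, interval 0.80 to 1.40) and 56 in TAM (-1.01, interval -1.49 to -0.55). GABPB1 had 92 counts in control and 49 in TAM (-0.70, interval -1.23 to -0.19). TFAM, which packages and transcribes mitochondrial DNA, had 270 counts in control and 595 in Rg3 (0.81, interval 0.60 to 1.03), and TFB2M, its partner in transcription, had log2 fold changes of 0.63 (interval 0.33 to 0.93) with Rg3 and -0.75 (interval -1.18 to -0.34) with TAM. PPRC1, a coactivator of the PGC-1 family, was lower with Rg3 (-0.91, interval -1.04 to -0.77), and ESRRA, an orphan nuclear receptor, higher with TAM (0.64, interval 0.49 to 0.80). After the trend was taken out, each regulator named above with Rg3 was inside the fold, at 0.13 (GABPA), 0.023 (TFAM), -0.030 (TFB2M) and -0.53 (PPRC1). With TAM GABPA (-0.18), ESRRA (0.16) and TFB2M (-0.54) were inside it, and GABPB1 (-0.61) was past it, lower. The counts were then 2 higher and 0 lower with Rg3, the coactivators PPARGC1A (1.14) and PPARGC1B (0.67). With TAM NRF1 (0.62) was higher, and PPARGC1B (-1.42) was lower beside GABPB1. PPARGC1A, PPARGC1B and NRF1 were named after their values were seen, and PPARGC1A rests on 8 counts in control and 28 in Rg3.

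Ribosomal protein genes are also short and highly expressed, and their values stand beside those of the chain. Of 77 mitochondrial ribosomal proteins compared, 13 were past the fold higher and 9 lower with Rg3, where 25.0% and 19.5% of all genes were. The counts were 28 and 1 with TAM, where 17.4% and 23.8% were, with medians of -0.11 and 0.44. Of 82 cytosolic ribosomal proteins, 8 were higher and 1 lower with Rg3. The counts were 17 and 0 with TAM, with medians of 0.050 and 0.42. Without the trend, 4 mitochondrial ones were higher and 1 lower with Rg3, and 8 and 0 with TAM. The cytosolic counts were then 0 and 0 with Rg3, and 7 and 1 with TAM. The median of the respiratory chain members with TAM on the TMM scale, 0.39, lay near both.

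Promoter sequence was read from RefSeq windows on GRCh38.p14, from 250 bases before to 50 after the annotated start, for 67 members. Cores of 3 known motifs were searched as exact letters on both strands. The NRF1 core CGCATGCG, which reads the same on both strands, was in 10 of 67 windows (14.9%) and in 2.88% of 15843 windows of protein-coding genes. The GABPA core CCGGAAGT was in 9 (13.4%, against 6.19%), and the YY1 core AAGATGGC in 11 (16.4%, against 3.91%). No core is contained in another. A match is a description of the window, not of a bound site. SDHD was the 1 member whose window held both the NRF1 and the GABPA core. Its stretch at chr11:112086744-112086822 (plus strand), 129 to 51 bases before the start, is printed 5′ to 3′ with the cores in capitals, the first NRF1 and the second GABPA on the other strand.
SDHD: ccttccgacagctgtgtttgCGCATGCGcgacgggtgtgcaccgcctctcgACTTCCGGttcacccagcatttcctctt
Members with an NRF1 core had fold changes in either direction with Rg3, from -0.88 (ATP5G2) to 0.77 (ATP5C1). Those with a GABPA core ranged from -0.43 (NDUFA13) to 0.55 (SDHD) with Rg3 and from -0.47 (SDHD) to 0.83 (NDUFA13) with TAM.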

How the data were processed

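Total RNA of PANC-1 cells was isolated with TRIzol and RNeasy columns and sequenced on the Ion Proton. The authors aligned reads with TopHat, and the deposited values are raw read counts per gene symbol for 3 libraries. The build was GRCh38 in the submitters' processing notes. The counting tool, annotation and use of strand are not given in the sources used here. 0 value columns were left unused. Counts were scaled with TMM (edgeR 4.0.16, R 4.3.3). Genes that reached 10 counts in 1 of the 2 libraries were compared, and counts under 3 were raised to 3. With 1 library per condition Limma could not be fitted, so the fold limits of 1.5 and 0.67 served without a test. Intervals are exact 95% Clopper-Pearson intervals (scipy 1.17.1) and cover counting error alone. Length and GC content were medians over GENCODE 29 protein-coding transcripts, found for 89 of 91 members. The trend was a loess curve with span 0.3 (statsmodels 0.14.6). Its removal was tested on simulated counts with a straight trend on GC content or none, and with no trend on length. That setting differs from the data, so it does not show how the removal acted on the members here. Shared reads were judged by stretches of 50 bases. 1 member is counted in the totals and its own values are not reported here. The 139 pseudogene rows were kept out by the rule. Alternatives were library totals, DESeq2 1.42.0 size factors, minimums of 1 and 50 counts, trend removal, removal of members with shared reads or of readthrough rows, and tests on reads. The longest transcript was added after seeing the data. Members and lists were chosen with earlier results of these data known. Genes named were, in each comparison, the 10 members with at least 50 counts furthest from the members' median in each direction, catalytic and subunit c genes, paralog pairs, readthrough rows, the highest and lowest level per length in each complex, and, in other lists, up to 3 members past the fold in each direction with the most counts.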

Additional observations from a re-analysis of the deposited data

Results flagged for a closer look

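Reads were also counted on 139 rows that carry the name of a member followed by a pseudogene number and that enter no comparison above. They took 0.0588% of the counted reads in control (exact 95% interval 0.0574 to 0.0602), 0.0770% in Rg3 (0.0755 to 0.0786) and 0.0578% in TAM (0.0564 to 0.0592). The value in Rg3 stood above that of the untreated library, and the intervals cover counting error alone. The rows of COX6A1 held 1759, 2459 and 1497 counts in control, Rg3 and TAM, those of NDUFV2 590, 996 and 465, and those of NDUFA4 594, 1214 and 675. Whether these reads came from the parent transcripts was not tested.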

How the results depend on the processing

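No paired analysis was possible because there was 1 library per condition, and for the same reason no library could be left out. With library totals 16 members were higher and 5 lower with Rg3 (median log2 fold change 0.15), and with TAM 7 were past the fold, 5 higher and 2 lower (median 0.18). Once the GC and length trend was taken out, 4 were past the fold with Rg3, 1 higher and 3 lower, and 6 with TAM, 3 higher and 3 lower (median 0.18). With the longest transcript 4 were higher and 11 lower with Rg3. With TAM 17 were higher and 1 lower. Shares of all genes past the fold are not given for library totals, for the longest transcript or for the tests that follow. Those counts of members thus have no background beside them. Requiring also the exact test of edgeR at a presumed biological variation of 0.2 left 0 members past the fold, higher or lower, with either agent, while a binomial test on reads left 20 with Rg3 and 15 with TAM. COX6B2, the 1 lower member with TAM, was lost with at least 50 counts, without members with shared reads and with the binomial test, each giving 0 lower. The share of reads was 1.59% in control, 1.68% in Rg3 and 1.81% in TAM without mitochondrial genome genes and small structural RNAs in the denominator, and 1.05%, 1.08% and 1.24% over members without shared reads. Of the members past the fold with Rg3, 5 changed sign once the trend was removed, with values by median and by longest transcript of 0.011 and 0.043 for NDUFA11, -0.10 and -0.031 for NDUFA5, -0.11 and -0.076 for NDUFB5, 0.072 and 0.050 for NDUFB7, and -0.098 and -0.085 for UQCRB, and the cause was not tested. DESeq2's size factors moved 1 of 166 single values beyond its counting interval, and library totals moved 136. With a minimum of 1 count, without readthrough rows and with DESeq2's size factors, the counts of members past the fold stayed within 1.5 times those reported.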
